A study of Mus musculus with 8 samples.

Results

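The RhoGAP, RhoGEF and DOCK regulators examined here were every mouse gene on the array whose symbol follows the Arhgap, Arhgef or Dock numbering, and the rule used the symbol and no measured value, although this set of genes was proposed with earlier results of these data known. They comprised 62 genes with 137 probesets of the 46643 on the array. The RhoGAPs were 31 genes with 71 probesets, the RhoGEFs 21 genes with 40 probesets and the DOCK proteins 10 genes with 26 probesets. The RNA was from the mouse podocyte line MPC-5, which is conditionally immortalized, grows at low and differentiates at body temperature, and had been stably transfected with a tagged cDNA of WT1(+KTS), a splice form of the Wilms tumor protein. The cells were grown at 33°C and differentiated for 14 days at 37°C. There were 4 arrays of eluate RNA, from pulldowns of the tagged protein on IgG beads, and 4 arrays of input RNA, from extract kept without beads. Both fractions therefore carried the transgene, and the line is 1 transfected cell line. No pulldown from cells without the tagged protein was among the arrays. On these arrays alone, RNA held by the tagged protein and RNA held by the beads therefore cannot be told apart. By quantitative RT-PCR the study found Myh10 and Dbn1 mRNA enriched from empty-vector cells too, with the Dbn1 data not shown. The eluates were released with TEV protease, which cuts the tagged protein from the beads. With albumin in place of the protease Myh10 mRNA was similarly enriched, while the tagged protein was not released. The study concluded that enrichment did not require WT1(+KTS). It gives no such value for the regulators examined here.

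The small GTPases RhoA, Rac1 and Cdc42 are molecular switches that set the shape of the actin cytoskeleton. RhoGEFs and DOCK proteins turn them on by loading GTP, whereas RhoGAPs turn them off by speeding the hydrolysis of GTP. In podocytes the balance of their activity governs the actin bundles of the foot processes, so the mRNAs of their regulators belong to the actin signalling machinery even though most of the encoded proteins do not bind actin. The question addressed here was whether these mRNAs were recovered in the eluates above or below their level in the input.

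The deposited signal was examined on the log2 scale, and a probeset was tested if its signal reached 100 on at least 3 of the 4 eluate arrays, which 13902 did. Differences are log2 fold changes of eluate over input from limma, called at a Benjamini-Hochberg adjusted p of 0.15 or less over all tested probesets, the 15% false discovery rate named in the methods of the study. The median signal of an array was 64.9 to 84.6. In either fraction the arrays fell into a pair of sets. Array set 1 held Input 1, Input 2, Eluate 1 and Eluate 4, and array set 2 held Input 3, Input 4, Eluate 2 and Eluate 3. They were defined by the sign of the first principal component of the deviations from the fraction means, which carried 74.2% of that variance. No label names them, and what they stand for was not tested. Of the podocyte markers with a probeset, 4 of 9 reached 100 on at least 3 inputs (Nphs1, Synpo, Podxl and Lmx1b), whereas Wt1, Cd2ap, Ptpro, Foxc2 and Tcf21 did not. Nphs1, which encodes nephrin, lay at 74.4 to 114, and both Wt1 probesets lay at 51.5 to 91.2. The Nphs1 signals lay near the array medians, so reaching 100 does not by itself show that its mRNA was present. The study reports no detection of nephrin mRNA in its cell extracts. Whether those Wt1 probesets lie within the tagged cDNA was not examined, so they are no check of the transgene. No leukocyte marker and 1 of 5 endothelial markers reached that level.

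Of the 137 probesets of these regulators 39 were tested, or 28.5%, against 29.8% of all probesets. They represent 30 genes, namely 15 RhoGAPs, 12 RhoGEFs and 3 DOCK genes. Because the filter reads the eluates, a transcript bright in the eluates alone could pass, whereas one bright in the inputs alone could not. 2 of the 39 probesets were higher in the eluates, those of Arhgap23 and Arhgef1, and none was lower. That is 5.13% of them, and 5.98% of all tested probesets were called, with 3.58% higher and 2.41% lower. Of those calls 59.7% were higher, against 49% after quantile normalization and 47.1% with the median of each array subtracted. At an unadjusted p under 0.05 there were 4 of 39 regulator probesets and 2116 of all 13902 (limma). Only Arhgap23 was both called and at least 2-fold higher, as was 0.669% of all tested probesets. With the array sets as a block in the limma fit, 14 of 39 were called, 12 of them higher (11 genes) and 2 lower. This share of 35.9% stood beside 29.7% of all tested probesets, with 14.4% higher and 15.2% lower. Since the sets were drawn from these same values, adjusted p-values with the set block, here and below, are given as a description. For 37 of the 39 probesets the 95% interval without the block excluded a 2-fold difference in signal in either direction. The others were Arhgap23 and the brighter probeset of Arhgap24. The upper limit for Arhgef19, 1.00 on the log2 scale after rounding, lay at that edge. For probesets near a signal of 100 such an interval says little about the RNA. The methods describe the pulldowns as independent, but nothing says whether the extracts came from separate cultures, so a p-value here measures spread among these samples alone, which may be technical.

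Arhgap23, a RhoGAP that carries a PDZ domain, was the regulator with the largest enrichment. Its signal was 1703, 1931, 1682 and 1402 in Input 1 to 4 and 3700, 3403, 2685 and 4019 in Eluate 1 to 4. Every eluate lay above every input. The mean log2 signal rose from 10.70 ± 0.19 to 11.74 ± 0.25 (SD, n = 4 each), a log2 fold change of 1.03 (SE 0.16, 95% interval 0.69 to 1.38) or 2.05-fold, with an adjusted p of 0.00955 in limma. It ranked 93 of 13902 by log2 fold change. The difference was 1.09 within array set 1 and 0.98 within array set 2, and the adjusted p with the sets as a block was 1.8e-08. Leaving out any 1 array gave log2 fold changes of 0.95 to 1.15 and limma adjusted p-values of 0.00462 to 0.0436. For scale, the brightest tested probeset of Myh10, a nonmuscle myosin heavy chain, differed by 3.23. That of Dbn1, the actin-binding protein drebrin, differed by 3.65, whereas that of Gapdh differed by 0.11 (adjusted p = 0.751, limma). A second Arhgap23 probeset lay at 52.5 to 66 on the 8 arrays, near the array medians, and was not tested.

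The genes whose signals followed that of Arhgap23 most closely over the 8 arrays were Hip1 (Pearson r = 0.996), Mthfd1l (0.993), Card10 (0.992) and Serhl (0.992), together with a probeset without a symbol (0.992). The 8 arrays share the fraction and the array set, so these values are a description. All of these probesets had a higher mean in the eluates, by 0.36 (Serhl) to 0.71 (the unnamed probeset) on the log2 scale.

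**Figure D1:**
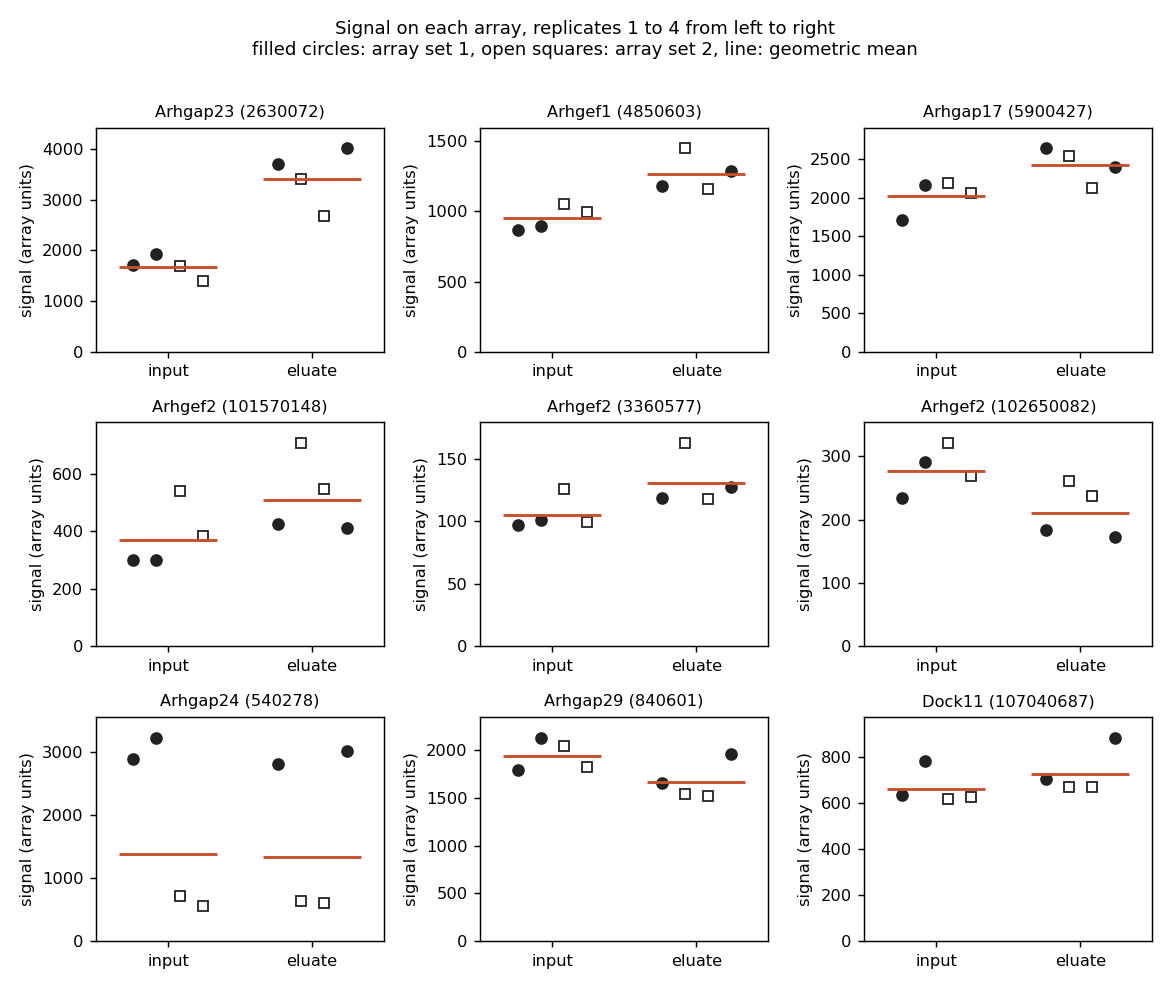
Signal of 9 probesets on each of the 8 arrays (y axis, array units, linear from 0), inputs on the left and eluates on the right of each panel, with replicates 1 to 4 in order. Filled circles are array set 1, open squares array set 2, and the line is the geometric mean of a fraction. All 4 eluates of Arhgap23 (2685 to 4019) and Arhgef1 (1163 to 1452) lie above the inputs, whereas Arhgap24 separates by array set and not by fraction.

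Among the RhoGEFs, Arhgef1 was the single gene called. It encodes a RhoA activator that couples G12 and G13 family receptors to this GTPase through an RGS-like domain. Its signal was 866, 894, 1056 and 997 in Input 1 to 4 and 1181, 1452, 1163 and 1290 in Eluate 1 to 4, again without overlap of the fractions. The log2 fold change was 0.41 (SE 0.12, 95% interval 0.14 to 0.69, 1.33-fold) with an adjusted p of 0.138 in limma. The difference was 0.49 within array set 1 and 0.34 within array set 2, and the adjusted p was 0.00988 with the sets as a block. This call stood near the threshold, for on leaving out 1 array at a time it was kept in 1 of 8 fits, that without Eluate 3, and the limma adjusted p ranged from 0.148 to 0.361, where the lowest value is just inside the threshold. Arhgap23 and Arhgef1 were the only regulators whose eluates all lay above all inputs, and none lay entirely below. Of all tested probesets, 4.83% lay entirely above and 5.01% entirely below.

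The relatives of Arhgef1 in the RGS-containing group did not pass the test. Arhgef11, which also carries a PDZ domain, had signals of 1278, 1458, 1750 and 1577 in the inputs and 1462, 2142, 1833 and 1521 in the eluates. The fractions overlapped, with a log2 fold change of 0.19 (95% interval -0.16 to 0.54, adjusted p = 0.654, limma). Arhgef12, the leukemia-associated RhoGEF, had signals of 117 to 175 in the inputs and 114 to 149 in the eluates and a log2 fold change of -0.16 (adjusted p = 0.735, limma). The interval of Arhgef11 holds the value of Arhgef1, and the difference between these genes was not tested.

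Arhgef19, Arhgef10l, Arhgef10 and Arhgef3, all activators of RhoA, were called higher once the array sets were taken as a block. Arhgef19 had signals of 309, 345, 227 and 169 in Input 1 to 4 and 460, 277, 254 and 408 in Eluate 1 to 4. The eluates were higher within each set, by 0.41 and 0.44 on the log2 scale, while the fractions overlapped across sets. Its log2 fold change of 0.42 (95% interval -0.15 to 1.00) had an adjusted p of 0.504 without and 0.0104 with the block in limma. The brighter Arhgef10l probeset differed by 0.40 within set 1 and 0.28 within set 2 (adjusted p = 0.552 without and 0.0521 with the block, limma), and the brighter Arhgef10 probeset by 0.29 and 0.26 (0.746 and 0.103). Arhgef3 differed by 0.36 within set 1 and by 0.17 within set 2 (0.711 and 0.117). For all of these the call existed under the block alone, and the sets were found in these same data. The second probesets of Arhgef10l and Arhgef10 differed by -0.05 and 0.02 and were called under neither fit.

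Arhgef2, a RhoA activator that is held inactive on microtubules, was measured by 3 tested probesets that did not move together. The first had signals of 299, 301, 542 and 385 in the inputs and 427, 709, 547 and 412 in the eluates. The second was dimmer, with signals of 97.2 to 126 in the inputs and 118 to 163 in the eluates. Both were higher in the eluates, by 0.47 (adjusted p = 0.383, and 0.00608 with the set block, limma) and 0.31 (0.355 and 0.0723). The third, which the array annotation ties to a cDNA clone, had signals of 234, 291, 321 and 268 in the inputs and 184, 260, 237 and 172 in the eluates. It went the other way, with a log2 fold change of -0.40 (95% interval -0.76 to -0.03, adjusted p = 0.285, and 0.0172 with the set block, limma). The span of 0.86 on the log2 scale between probesets was the widest of the 8 genes with more than 1 tested probeset, so Arhgef2 has no single direction here. The other genes whose probesets differed in sign were Arhgap24 (-0.05 and 0.01) and Arhgef10l (-0.05 and 0.34).

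The remaining RhoGEFs were called in neither fit. Arhgef18, a RhoA activator at cell junctions, differed by 0.20 (adjusted p = 0.756, limma), Arhgef25, which couples Gq to RhoA, by 0.09 and 0.16 at its 2 probesets, Arhgef4, a binding partner of the tumor suppressor APC, by -0.03 and Arhgef39 by -0.17 (adjusted p = 0.838, limma).

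Among the RhoGAPs other than Arhgap23, the lowest ratios belonged to Arhgap29, which acts on RhoA. Its dimmer probeset had signals of 399, 358, 388 and 303 in the inputs and 224, 269, 264 and 347 in the eluates. Only Eluate 4 reached the range of the inputs. The log2 fold change was -0.40 (SE 0.16, 95% interval -0.75 to -0.05) with an adjusted p of 0.253, and of 0.0229 with the set block (limma). Within the sets it was -0.44 and -0.36. Without Eluate 4 it was called lower (adjusted p = 0.114, limma). The brighter probeset had signals of 1800, 2136, 2044 and 1827 in the inputs and 1662, 1545, 1527 and 1967 in the eluates, with a log2 fold change of -0.22 (adjusted p = 0.456, and 0.188 with the set block, limma). Its values overlapped through Eluate 4 as well. After quantile normalization, with the median of each array subtracted or with array weights, both probesets were called lower. Arhgap32, a RhoGAP known from neurons, had the same mean difference of -0.22 (adjusted p = 0.458, limma), which was -0.35 within set 1 and -0.09 within set 2.

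A second group of RhoGAPs was called higher with the set block, a fit that called 14.4% of all tested probesets higher. The sets were found in these same data, so these calls are a description. Arhgap17, which acts on Cdc42 at tight junctions, had signals of 1718, 2166, 2191 and 2064 in the inputs and 2647, 2540, 2132 and 2402 in the eluates. Only Eluate 3 fell within the range of the inputs. Its log2 fold change was 0.26 (95% interval -0.02 to 0.54) with an adjusted p of 0.377 without and 0.129 with the block (limma), and it was also called with array weights (0.137, limma). Arhgap1, a widely expressed GAP for Cdc42 and RhoA, differed by 0.26 at its brighter probeset (adjusted p = 0.474 without and 0.119 with the block, limma) and by 0.11 at the other. Arhgap10, a BAR domain protein of the GRAF group, differed by 0.28 (0.487 and 0.107) and 0.12. Arhgap45, whose human counterpart is a minor histocompatibility antigen, differed by 0.25 (0.466 and 0.145).

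The other tested RhoGAPs were called in neither fit. Arhgap35, the p190A protein that binds p120 RasGAP, differed by 0.19 and Arhgap39 by 0.21, with adjusted p-values of 0.636 and 0.625 in limma. Arhgap44, Arhgap18, Arhgap19, Arhgap22 and Arhgap26 ranged from -0.01 (Arhgap26, a relative of Arhgap10) to 0.11 (Arhgap44, a relative of Arhgap17).

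**Figure D2:**
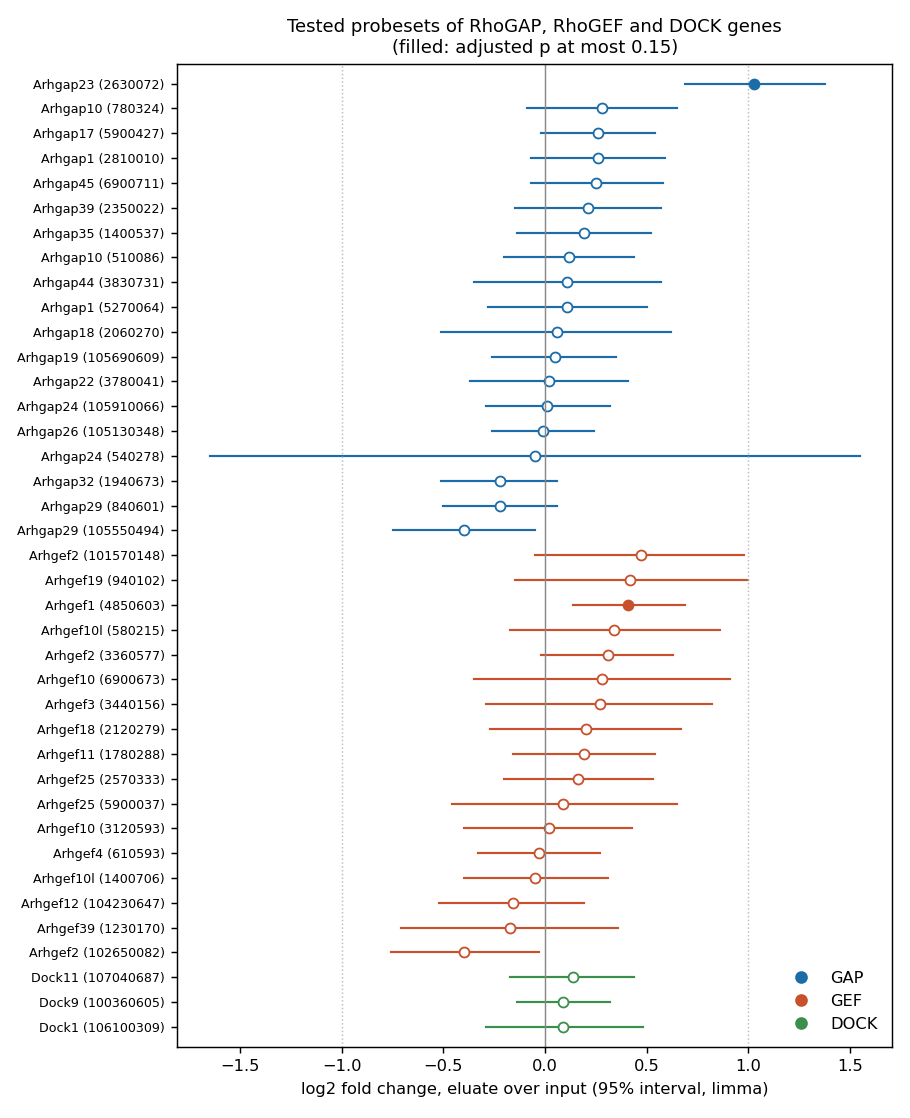
Log2 fold change of eluate over input (x axis) for the 39 tested probesets of RhoGAPs (blue), RhoGEFs (orange) and DOCK genes (green), each with its 95% interval from limma without a block. Filled points are called, and dotted lines mark 2-fold. Arhgap23 at 1.03 and Arhgef1 at 0.41 are called, and the interval of Arhgap24 runs from -1.65 to 1.55.

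The DOCK genes, whose proteins load GTP through a domain unlike that of the other GEFs, gave 1 tested probeset each for Dock1, Dock9 and Dock11. Dock11, which acts on Cdc42, was well above the filter, with signals of 636, 783, 621 and 628 in Input 1 to 4 and 705, 673, 672 and 887 in Eluate 1 to 4. Its fractions overlapped, with a log2 fold change of 0.14 (95% interval -0.17 to 0.44, adjusted p = 0.742, limma). Dock1, the Rac activator that works with ELMO proteins, had signals of 128, 158, 113 and 97.1 in the inputs and 142, 140, 103 and 139 in the eluates. Dock9, a Cdc42 activator, had signals of 103 to 116 in the inputs and 111 to 124 in the eluates. Both differed by 0.09, with intervals of -0.29 to 0.48 for Dock1 and -0.14 to 0.32 for Dock9 and adjusted p-values of 0.896 and 0.798 in limma. These 3 intervals exclude a 2-fold difference in signal, and with the set block none of these genes was called. Dock1 and Dock9 lay close to the array medians of 64.9 to 84.6, so their intervals say little about such a difference in the RNA.

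The 98 probesets that were not tested lay near the array median, with signals between 41.1 and 156, and 83 of them stayed below 100 on all 8 arrays. They include every probeset of 16 RhoGAPs, 9 RhoGEFs and 7 DOCK genes. The RhoGAPs were Arhgap4, Arhgap5, Arhgap6, Arhgap8, Arhgap9, Arhgap11a, Arhgap12, Arhgap15, Arhgap20, Arhgap25, Arhgap27, Arhgap28, Arhgap30, Arhgap31, Arhgap33 and Arhgap42. The RhoGEFs were Arhgef5, Arhgef6, Arhgef7, Arhgef15, Arhgef16, Arhgef17, Arhgef37, Arhgef38 and Arhgef40, and the DOCK genes were Dock2, Dock3, Dock4, Dock5, Dock6, Dock8 and Dock10. Another 27 belong to genes that had a tested probeset. A signal this close to the array median does not show that a gene was silent, since a probe may bind poorly. Their log2 fold changes ran from -0.17 (Arhgef12) to 0.20 (Arhgap4), with a median of -0.02. 3 untested probesets reached 100 on at least 3 inputs, those of Arhgap42, Arhgap19 and Dock5. Arhgap42, a GAP that acts on RhoA in smooth muscle, had signals of 137, 135, 122 and 90.2 in the inputs and 130, 97.3, 97.1 and 156 in the eluates. These overlapped, and a filter on either fraction, which admits all 3, left Arhgap23 and Arhgef1 as the regulators called.

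For most of these genes the arrays differed more by set than by fraction. The difference between set means was larger in size than that between fractions for 28 of 39 regulator probesets and for 8985 of all 13902. In 14 of 39, or 35.9%, the 4 arrays of one set lay entirely above those of the other, and this was so for 30% of all tested probesets. Since the sets were drawn from these values, no test of them is given. Set 1 was above in 12 probesets, of Arhgap1, Arhgap18, Arhgap22, Arhgap24, Arhgap44, Arhgef3, Arhgef10, Arhgef18, Arhgef19 and Arhgef39, and set 2 was above in those of Arhgef11 and Arhgef25. Across all tested probesets 25.4% had set 1 above and 4.6% had set 2 above. The median log2 signal of the tested probesets was 8.699 to 8.897 on the arrays of set 1. It was 8.514 to 8.683 on those of set 2. The set differences of single genes therefore include a shift shared by whole arrays, which was not removed here.

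Arhgap24, the filamin-binding RacGAP that restrains Rac1 in podocytes and in which human variants have been tied to focal segmental glomerulosclerosis, carried the widest set difference of these genes. Its bright probeset had signals of 2881 and 3225 in Input 1 and 2 and 712 and 555 in Input 3 and 4. In the eluates it was 2803 and 3010 in Eluate 1 and 4 and 635 and 598 in Eluate 2 and 3. The 4 arrays of set 1 were thus all above the 4 of set 2, by 2.26 on the log2 scale or 4.78-fold, and within each set the eluates lay near the inputs, with differences of -0.07 and -0.03. Without regard to sets the log2 fold change was -0.05 (SE 0.72, adjusted p = 0.991, limma), and its interval of -1.65 to 1.55 was the widest of the 39. With the block the adjusted p was 0.83 in limma. Its dim tested probeset, at 90 to 124, had the same order of sets with a difference of 0.28. The median size of the set difference was 0.31 over the 39 regulator probesets and 0.24 over all tested probesets.

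Arhgef25 went the other way, with signals of 960 and 1138 in Input 1 and 2, 1761 and 1622 in Input 3 and 4, 1145 and 1065 in Eluate 1 and 4, and 1913 and 1738 in Eluate 2 and 3. All arrays of set 2 were above those of set 1, a log2 difference of -0.71 for set 1 minus set 2. Differences of similar size with set 1 above were 0.80 for Arhgef10, 0.72 for Arhgef19 and 0.69 for Arhgap18.

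The summed signals of 3 of the 5 lists of cell type markers separated by set as well. The summed signal of the tubule markers was 11967 to 13935 in set 1 and 2726 to 3083 in set 2, with Aqp1 at 10046 to 12405 and 2081 to 2412, while 4 of the 6 tubule markers, Slc34a1, Umod, Slc12a1 and Aqp2, did not reach 100 on at least 3 inputs. The mesangial sum was 10716 to 15955 in set 1 and 2942 to 3533 in set 2, carried by Acta2, the smooth muscle actin, with Itga8 and Des below that level. The podocyte sum was 11079 to 18265 and 4745 to 9301, carried by Synpo, which encodes the actin-associated protein synaptopodin, whereas Podxl (590 to 914 and 678 to 788) and Nphs1 (90.2 to 107 and 74.4 to 114) overlapped between the sets. The endothelial sums (467 to 570 and 382 to 482) and the leukocyte sums (198 to 230 and 177 to 201) overlapped too. The part of these markers in the values of Arhgap24 and the other regulators was not tested. The extracts came from 1 podocyte line, and differences between its cells and in RNA per cell cannot be told apart in such extracts. By fraction, the sums overlapped for every list, and no tested marker gene was called. The podocyte sum was 4750 to 11800 in the inputs and 7880 to 18300 in the eluates, with Synpo at 3605 to 10630 and 6712 to 16891. The tubule sum was 2830 to 13900 in the inputs and 2730 to 12800 in the eluates.

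**Figure D3:**
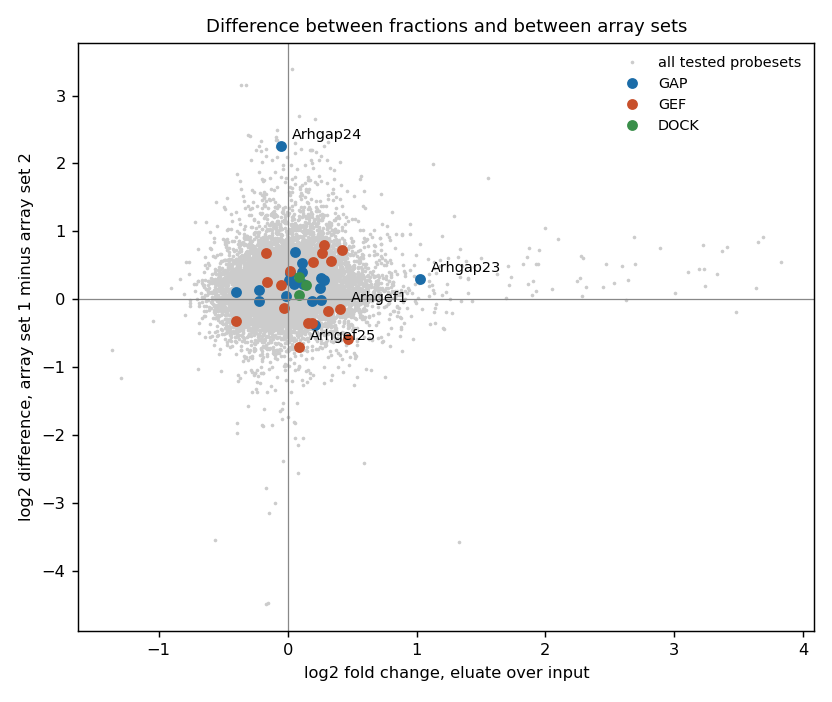
Log2 fold change of eluate over input (x axis) against the log2 difference of array set 1 minus array set 2 (y axis) for the 13902 tested probesets (grey) and the 39 of RhoGAPs (blue), RhoGEFs (orange) and DOCK genes (green). Arhgap23 lies apart along the fraction axis at 1.03 and Arhgap24 along the set axis at 2.26.

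When each gene was represented by its brightest tested probeset, the 15 RhoGAPs had a median log2 fold change of 0.11, with 11 above 0 and a range of -0.22 to 1.03. The 12 RhoGEFs had a median of 0.23, with 9 above 0 and a range of -0.17 to 0.47. The 3 DOCK genes had a median of 0.09, with all 3 above 0. Over the 30 genes the median was 0.16 and 23 were above 0, beside a median of 0.0010 over all 8674 tested genes, of which 4353 were above 0. Within array set 1 the medians were 0.20 for RhoGAPs, 0.25 for RhoGEFs and 0.02 for DOCK genes, and within array set 2 they were 0.03, 0.22 and 0.15. The order of RhoGAPs and DOCK genes thus differed between sets, and the RhoGEF median was the highest of the 3 in both. Without the filter on signal this order turned, with medians of 0.03 for RhoGEFs, 0.04 for RhoGAPs and 0.08 for DOCK genes. Leaving out 1 array moved the RhoGAP median between -0.01 (without Input 4 or Eluate 4) and 0.23 (without Eluate 3) and the RhoGEF median between 0.16 (without Input 4) and 0.39 (without Eluate 3), ranges that overlap. The genes were chosen with results of these data known and passed a filter on the eluates, so no test of the classes is given.

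Related genes were examined as lists, with 1 probeset per gene. Of all 8674 tested genes 6.24% were called, with 3.8% higher. The set block called 30.1% of all genes, with 15.5% higher. Regulators named outside the numbered series were higher in 3 cases and lower in none. Of 20 RhoGEFs under other symbols, Trio, a large protein with GEF domains for Rac and RhoA, rose by 0.90 (SE 0.12, adjusted p = 0.00537, limma). Swap70, an actin-binding Rac activator, rose by 0.52 (SE 0.15, adjusted p = 0.126, limma). The list median was 0.26, and 11 were higher with the set block. Of 12 RhoGAPs under other symbols, Myo9b, an unconventional myosin with a RhoGAP domain, rose by 0.48 (SE 0.13, adjusted p = 0.107, limma). The list median was 0.09, and 5 were higher with the set block. None of the 5 tested DOCK partners, Elmo2, Elmo3, Crk, Crkl and Bcar1, was called, and with the set block 1 was higher and 1 lower. None of these called regulators reached 2-fold. The 3 calls in these lists fell to 1 when Input 3, Input 4, Eluate 1 or Eluate 2 was left out and became 5 without Eluate 3.

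**Figure D4:**
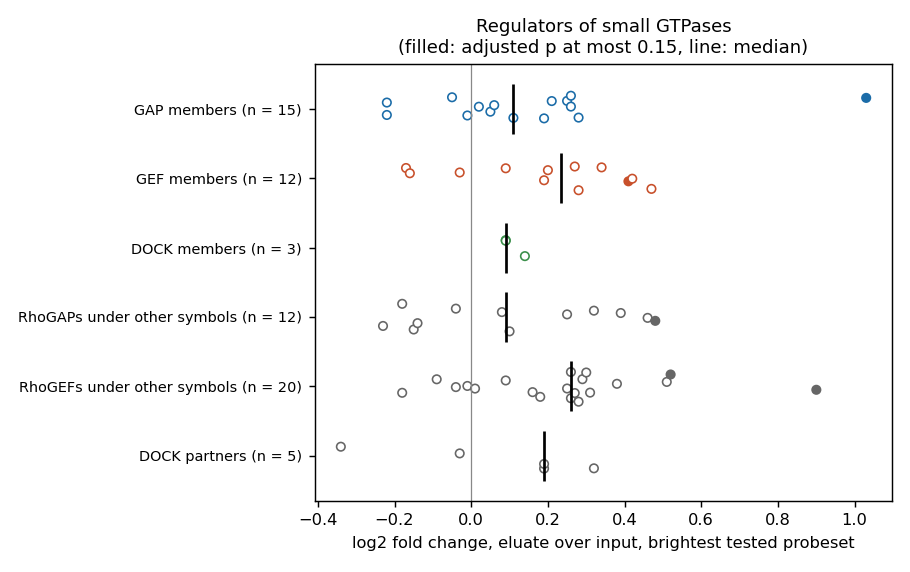
Log2 fold change of eluate over input (x axis) for single genes at their brightest tested probeset, by class of regulator and by list (rows, with the number of genes tested). Filled points are called at an adjusted p of 0.15 in limma and the vertical line is the median. Arhgap23 at 1.03 is the highest point, followed by Trio at 0.90, and the medians run from 0.09 for the DOCK genes and the RhoGAPs under other symbols to 0.26 for RhoGEFs under other symbols.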

How the data were processed

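Per the labels and the methods of the study, 650 ng of total RNA of each of 4 inputs and 4 eluates was amplified, biotin-labelled and hybridized to Illumina Sentrix-6 mouse arrays. BeadStudio and Partek 6.4 are named in the submitters' processing notes. Values were deposited as log2 signal. Taken back from log2, each value lay within 0.00347% of a number with 1 decimal, so the table holds the log2 of a signal printed to that precision. The sources used here do not state a normalization between arrays, and any would shift the fold changes of every probeset on an array together or by its brightness. Another 24 columns of values in other deposited tables match no sample label and were not used.

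Genes were named from the platform annotation, in which 32794 probesets have 1 symbol. Updating by Entrez ID altered the symbol of 0 member probesets. A probeset was tested where 3 or more eluates reached a signal of 100, in place of a detection value. The lowest signal of the table was 31.2. The log2 signal was fitted on the fraction with limma 3.58.1 (lmFit, eBayes) in R 4.3.3, without a block, and p-values were adjusted over the 13902 tested probesets. Other steps used pandas 2.3.3, numpy 2.4.6, scipy 1.17.1 and matplotlib 3.10.9 under Python 3.11.15. The fit was also run on simulated data whose noise was independent between arrays, so without array sets. There 50% of 1.5-fold and 82% of 2-fold changes were called, and 10.8% of calls were false. These shares need not hold for arrays that fall into sets. The methods pair each pulldown with a parallel input, but no label says whether the replicate numbers give the pairs. Deviations of same-numbered arrays from their fraction means correlated at 0.474, -0.663, 0.737 and -0.765 for numbers 1 to 4. These signs follow the array sets, since the arrays numbered 1 or 3 share a set and those numbered 2 or 4 do not. They therefore cannot decide whether the numbers pair the arrays. The members, lists, markers, tests and alternatives, the array-set block included, were chosen with earlier results of these data known. The rule for named genes took every member called, the 3 highest and 3 lowest log2 fold changes and the 3 brightest genes of each class, genes whose probesets differ in sign or call, the members next to the threshold, up to 3 called genes of each list by size of change, and the 5 probesets most like the most enriched member. The other tested members were named after their values were seen. Some further lists are not reported here. For medians over genes, the probeset brightest on average stood for its gene. Alternatives were other blocks, scalings, filters, variance models and thresholds, and leaving out each array in turn. Arrays give no counts, so their number, 4 per fraction, limits the precision.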

Additional observations from a re-analysis of the deposited data

Results flagged for a closer look

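In 78 groups of 4 arrays, 39 tested probesets in each fraction, the gap of the highest or lowest array to the next was set against the range of the group, and 4 passed the 95% critical value of Dixon's test, where chance passes about 1 in 20 groups. For Arhgap10 the signal of 380 in Input 4 lay below the other inputs (514 to 521), with a gap of 0.958 of the range. For Arhgef2, at its dimmest tested probeset, the signal of 126 in Input 3 lay above the others (97.2 to 101), with a gap of 0.839. For Dock1 the signal of 103 in Eluate 3 lay below the other eluates (139 to 142), with a gap of 0.936. For Dock11 the signal of 783 in Input 2 lay above the other inputs (621 to 636), with a gap of 0.895. None of these genes was called without a block.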

How the results depend on the processing

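Arhgap23 was called under all 17 alternatives that give a test at the same threshold, with limma adjusted p-values of 1.8e-08 to 0.0495, the highest with the replicate number as a block. Arhgef1 was called under 7 of 17 (0.00988 to 0.447) and lost its call with the replicate block (0.447), without a filter, with trend and robust variance and on leaving out any array but Eluate 3. The number of regulator probesets called, 2 in the fit reported, was 1 with the replicate block and 14 (12 genes) with the array sets as a block. It was 4 after quantile normalization, 4 with each array's median subtracted, 1 without a filter and 1 with trend and robust variance. With array weights it was 7, at an adjusted p of 0.05 it was 1, and it was 1 to 2 when each array was left out in turn. The probesets added by quantile normalization or median subtraction were both those of Arhgap29, lower in the eluates. For all tested probesets, higher calls were 59.7% of 832, against 49% after quantile normalization, 47.1% with medians subtracted, 48.6% of 4124 with the set block, 97.4% with the replicate block, which called 1.12% of those tested, and 40.6% with array weights. Whether the replicate numbers pair the arrays is not known, so the block by number is given as a value only. The number of genes called in the lists of related genes, 3, was 1 with the replicate block, 18 with the set block, 10 after quantile normalization, 10 with medians subtracted, 1 at an adjusted p of 0.05, and 1 to 5 when each array was left out. The median of RhoGEFs was 0.23, but 0.03 without a filter and 0.16 to 0.39 when each array was left out, that of RhoGAPs was -0.01 to 0.23 and that of DOCK genes 0.06 to 0.21 (the highest without Input 2). The cause of these shifts was not tested.

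Of 702 values of single probesets under alternatives with a test 42 changed sign, as did 9 of 78 within an array set alone, none of them for a probeset called in the fit reported. With array weights the 42 included -0.01 for Arhgap1 (the dimmer probeset), -0.02 for Arhgap18, -0.17 for Arhgap22, -0.02 for Arhgap44, -0.17 for Arhgef10 (the dimmer probeset) and 0.02 for Arhgef4. After quantile normalization they were -0.0027 for Arhgap22 and 0.01 for Arhgap26, and with medians subtracted -0.01 for Arhgap24 (the dimmer probeset) and -0.0004 for Arhgef10 (the dimmer probeset). When each array was left out in turn, sign changed within the ranges of -0.10 to 0.24 for Arhgap18, -0.03 to 0.13 for Arhgap19 and -0.08 to 0.11 for Arhgap22. It also changed within -0.06 to 0.09 and -0.49 to 0.36 for the dimmer and brighter probesets of Arhgap24, -0.07 to 0.04 for Arhgap26 and -0.04 to 0.23 for Arhgap44. The ranges were -0.14 to 0.11 for Arhgef10 and -0.14 to 0.06 for Arhgef10l, both at the dimmer probeset, and -0.06 to 0.23 for Arhgef25 at the brighter probeset. They were -0.09 to 0.07 for Arhgef4 and -0.02 to 0.22 for Dock1. The brighter probesets of Arhgef10 and Arhgef10l kept their sign (0.10 to 0.47 and 0.21 to 0.52). Probesets near 100, close to the array medians of 64.9 to 84.6, limit what the dim members can show.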
